A study of Mus musculus with 17 samples.

Results

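Bulk RNA of mouse leukaemic bone marrow was compared between libraries that were high and libraries that were low in Cpa3, the gene of the mast cell granule enzyme carboxypeptidase A3. CPM, counts per 1e6 counts of a library, are taken over the column total. The classes were chosen by measured Cpa3 itself. High was set at 100 CPM of Cpa3 or more and low at under 100 CPM, over 14 of the 17 libraries, with libraries 10, 11 and 12 left out. The rule gave 5 high libraries, namely control 3, 8, 9 and 15 and Mt1ko 6, and 9 low libraries, namely control 1, 2, 7 and 14 and Mt1ko 4, 5, 16, 17 and 18.

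The RNA was taken from leukaemic marrow, acute myeloid in kind, that C57BL/6 mice of the following genotype carried: Dnmt3aR878H/+;Npm1cA/+, a heterozygous point mutation of a DNA methyltransferase together with a heterozygous allele whose nucleophosmin is kept in the cytoplasm. The control libraries carried those 2 alleles alone. The Mt1ko libraries carried the same 2 alleles and a CRISPR-Cas9 knock-down of Mt1, which encodes metallothionein 1, a small protein that binds zinc and copper. The labels state neither the guides, the cells they entered, the age of the mice nor the number of animals. Every library was labelled a technical replicate, and a second deposited table joined them into sums, of which 1-3, 7-9 and 14-15 are control and 4-6, 10-12 and 16-18 are Mt1ko. Both classes occurred in 4 of the 5 sums that make up the 14 libraries, and 16-18 held low libraries alone.

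Mast cells are tissue-resident granulocytes that arise from marrow progenitors and carry the receptor tyrosine kinase Kit throughout life. Their granules store proteases, among them carboxypeptidase A3, chymases and tryptases, together with histamine and, in rodents, serotonin. The high-affinity IgE receptor, built from the chains of Fcer1a, Ms4a2 and Fcer1g, and the interleukin-33 receptor of Il1rl1 trigger their release, and the transcription factors GATA2 and MITF act in their development.

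Because measured Cpa3 made the classes, the contrast of high with low libraries is given as a description with no p-value. Cpa3 itself (ENSMUSG00000001865; GRCm38 chromosome 3, 20215620 to 20242181, minus strand) stood at 158, 178, 618 and 394 CPM in control libraries 3, 8, 9 and 15 and at 209 CPM in library 6. Among the low libraries it stood at 7.87, 37.0, 6.69 and 0.209 CPM in control 1, 2, 7 and 14, and at 81.8, 83.2, 13.6, 86.1 and 43.2 CPM in Mt1ko 4, 5, 16, 17 and 18. Nearest the threshold were the low Mt1ko libraries 17, 5 and 4, at 86.1, 83.2 and 81.8 CPM. The lowest high library, control 3, lay further from it, at 158 CPM. The lowest of all, library 14, rested on 7 counts. The 3 libraries left out lay above all 14, at 749, 1989.9 and 1184 CPM.

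One limit touches every statement on Mt1ko. Library 6 was the single high library of that group, so its class is a single value. It also went against its label: the library labelled Mt1ko number 6 held 326 CPM of Mt1, against 75.9 to 87.2 CPM in Mt1ko 4, 5, 16, 17 and 18 and 348 to 471 CPM in the 8 control libraries. It thus lay below the lowest control library and far above the other Mt1ko libraries. Its distance from the low Mt1ko libraries is a distance in Cpa3 and in Mt1 at once, and these cannot be told apart for any gene of the Mt1ko group.

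Sequence before the start sites of 3 of the genes that follow is shown because mast cell genes are textbook targets of GATA2, a protein that reads the letters GATA. Each stretch holds the 250 bases before a RefSeq start site in GRCm38.p6, written 5′ to 3′ on the gene's strand, and capitals mark AGATAA and the related TGATAA on either strand. The stretches are chr3:20242182-20242431 (minus strand), chr1:40429320-40429569 (plus strand) and chr1:173227230-173227479 (minus strand).
Cpa3: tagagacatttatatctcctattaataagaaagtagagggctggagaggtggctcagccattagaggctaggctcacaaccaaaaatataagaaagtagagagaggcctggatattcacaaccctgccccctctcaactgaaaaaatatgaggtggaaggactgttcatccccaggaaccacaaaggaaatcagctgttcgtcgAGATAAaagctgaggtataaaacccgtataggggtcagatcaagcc
Il1rl1: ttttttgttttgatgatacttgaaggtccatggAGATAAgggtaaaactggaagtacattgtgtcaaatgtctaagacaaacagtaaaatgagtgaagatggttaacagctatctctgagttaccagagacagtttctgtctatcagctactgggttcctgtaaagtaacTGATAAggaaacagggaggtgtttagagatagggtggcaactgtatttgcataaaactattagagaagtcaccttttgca
Fcer1a: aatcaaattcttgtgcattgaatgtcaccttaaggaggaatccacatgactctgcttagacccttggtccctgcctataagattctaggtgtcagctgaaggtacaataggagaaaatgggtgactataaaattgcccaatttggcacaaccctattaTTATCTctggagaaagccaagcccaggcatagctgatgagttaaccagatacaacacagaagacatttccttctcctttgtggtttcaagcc
The motif began 46 bases before the start in Cpa3, 217 and 80 bases before it in Il1rl1, and 92 bases before it in Fcer1a. Among the other named genes higher in both groups, a window of Cobl and that of Avil held these letters. The same windows of Cma1, Tph1, Scin, Xist, Kit, Cyp11a1 and Gzmb did not. The 3 genes shown all hold the motif and do not stand for the set.

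Across all genes but Cpa3, 12875 had a mean of at least 1 CPM over the 14 libraries. A gene was counted as higher in a group when every high library of that group lay above every low one and the class means differed by at least 1 on the log2(CPM + 1) scale, that is about 2-fold, and as lower in the mirrored case. Among control libraries, 233 genes (1.81%) were higher and 34 (0.264%) were lower. Among Mt1ko libraries, where the high class is library 6, 214 genes (1.66%) were higher and 180 (1.4%) were lower. The rule held in both groups for 67 genes (0.52%), all of them higher, and for 0 genes (0%) in the lower direction. Without the 2-fold condition, 572 genes (4.44%) lay above and 238 (1.85%) below in control, and 2254 (17.5%) above and 1732 (13.5%) below in Mt1ko. With the 14 libraries taken as one set, 74 genes (0.575%) lay higher and 16 (0.124%) lower without overlap. The rule used this contrast, so these shares describe the libraries and test nothing.

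Of the 67 genes, 9 stand on the mast cell list and 6 on the basophil and IgE receptor list. The 67 had a median class difference of 2.46 in control and 1.43 in Mt1ko on the log2(CPM + 1) scale, where the medians of all 12875 genes were 0.01 and 0.02. The control difference was the larger for 63 of them, as it was for Cpa3 itself, at 5.27 in control and 2.01 in Mt1ko. They comprised 65 protein-coding genes, Xist and 1 antisense locus, whereas predicted loci made up 15.2% of the genes tested. Of the 67, 19 had a mean of at least 10 CPM. The minimum of 1 CPM was a mean over both classes. Some of the 67, among them Il9r, Tnik and Hpgds, averaged under 1 CPM in the low libraries of both groups. Such genes passed the minimum only through the high libraries, so their place among the 67 supports nothing.

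The chymase gene Cma1 and the tryptase gene Tpsb2 had the largest mean differences of the 67. Cma1 (chromosome 14, 55941451 to 55944675, minus strand), a chymase, stood at 140.2, 169, 516 and 397 CPM in high control libraries 3, 8, 9 and 15, at 8.92, 33.4, 6.72 and 0.716 CPM in low control 1, 2, 7 and 14, at 163 CPM in library 6 and at 64.6, 74.4, 7.34, 68.4 and 36.0 CPM in Mt1ko 4, 5, 16, 17 and 18. Tpsb2 (chromosome 17, 25366305 to 25369098, plus strand), a tryptase, stood at 168, 233, 709 and 449 CPM in the same high control libraries, at 6.97, 31.9, 10.8 and 1.97 CPM in the low ones, at 171 CPM in library 6 and at 73.7, 69.0, 9.33, 78.8 and 49.1 CPM in the low Mt1ko libraries. Neither gene overlapped between the classes in either group, and library 9 was the highest and library 14 the lowest of the 14 for both. The class differences were 5.02 in control and 2.03 in Mt1ko for Cma1, and 5.10 and 1.89 for Tpsb2.

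Gzmb (chromosome 14, 56258838 to 56262260, minus strand), which encodes granzyme B and lies on the chromosome of the chymases, averaged 79.1 ± 35.2 CPM in the high control libraries (SD, n = 4) and 8.97 ± 14.1 CPM in the low ones (SD, n = 4). Library 6 held 82.2 CPM of it against 26.8 ± 16.6 CPM in the low Mt1ko libraries (SD, n = 5). Tpsg1, a membrane-anchored tryptase, spanned 4.78 to 11.4 CPM in high control and 0 to 0.794 CPM in low control libraries. Other mast cell proteases were scarce: Tpsab1 reached 3.93 CPM, Mcpt4 0.983 CPM, and Mcpt1 and Mcpt9 were at 0 in all 14 libraries. Chymase and tryptase genes have close copies, and the labels do not state how reads shared between Tpsb2 and Tpsab1 were split, so their separate levels are uncertain.

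**Figure D1:**
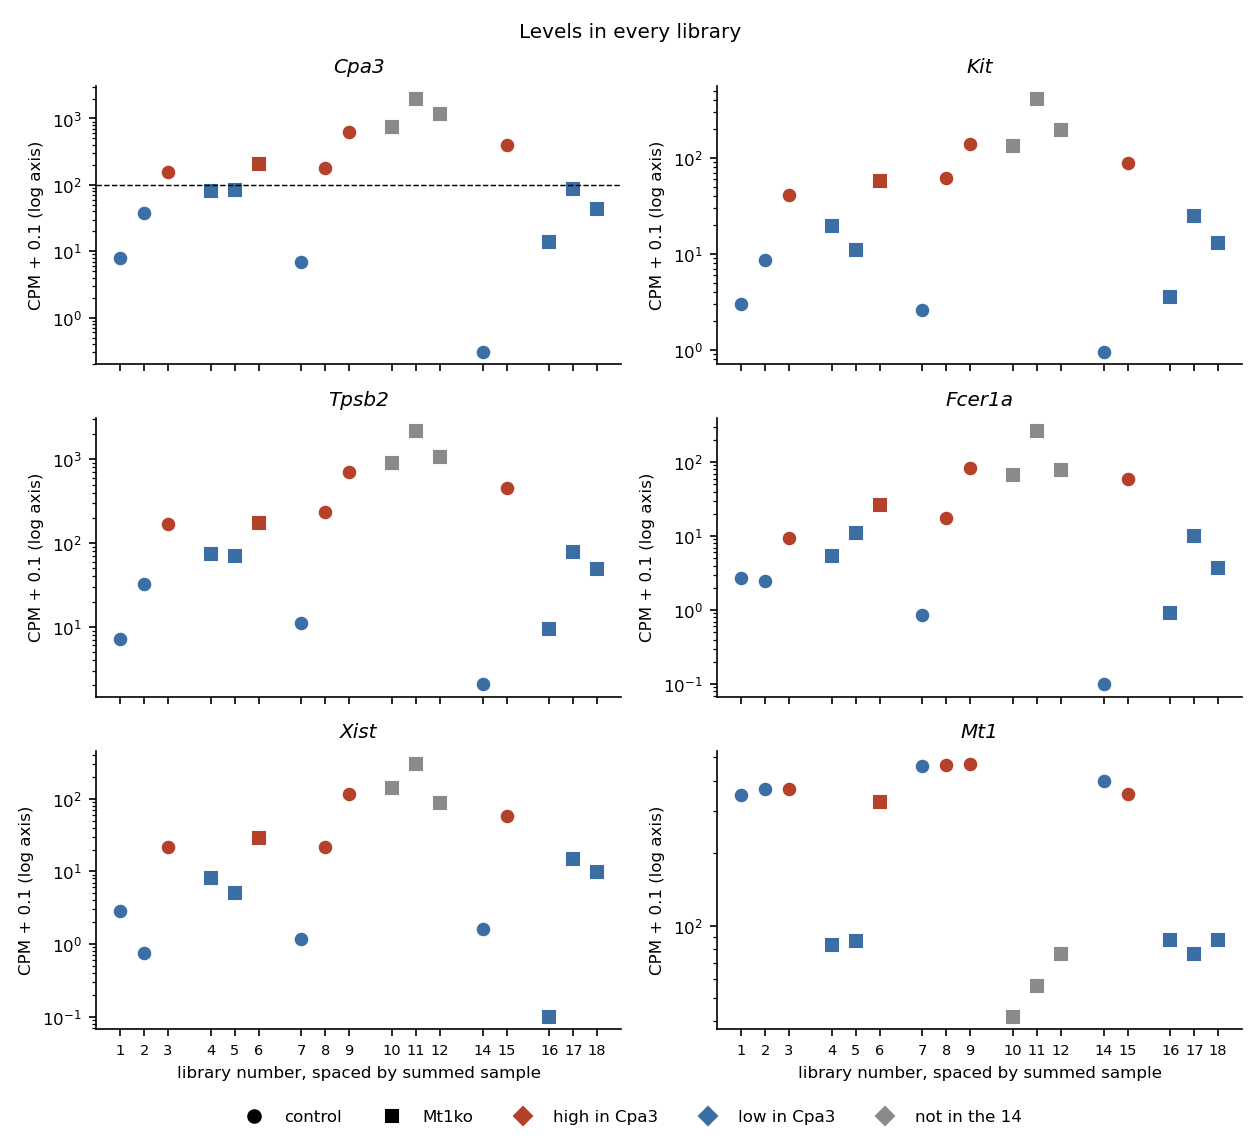
CPM plus 0.1 on a log axis of 6 genes in each of the 17 libraries, spaced by summed sample, with circles for control, squares for Mt1ko, red for high, blue for low and grey for libraries 10 to 12; the dashed line in the Cpa3 panel is the threshold. Kit, Tpsb2, Fcer1a and Xist rank the libraries much as Cpa3 does, while Mt1 is low in 8 of the 9 Mt1ko libraries and at 326 CPM in library 6.

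Enzymes and carriers of mast cell mediators followed the proteases. Tph1 (chromosome 7, 46644641 to 46672537, minus strand), the rate-limiting enzyme of serotonin synthesis outside the brain, stood at 62.1, 89.7, 319 and 174 CPM in control 3, 8, 9 and 15 and at 5.85, 10.2, 7.51 and 0.0298 CPM in control 1, 2, 7 and 14. Library 6 held 80.2 CPM of Tph1, and the low Mt1ko libraries held 4.13 to 33.0 CPM, so the classes did not overlap. Slc18a2, the vesicular transporter that loads monoamines into granules, spanned 4.06 to 28.8 CPM in high control, 0 to 3.96 CPM in low control, 9.83 CPM in library 6 and 0.221 to 3.68 CPM in low Mt1ko libraries. Hpgds, the haematopoietic prostaglandin D synthase, spanned 3.46 to 28.6 CPM in high control against 0 to 0.492 CPM in low control libraries. Hdc, which makes histamine, did not go with them: it reached at most 1.31 CPM in the 14 libraries.

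Cyp11a1, the side-chain cleavage enzyme that starts steroid synthesis, averaged 57.4 ± 34.3 CPM in the high and 1.67 ± 0.925 CPM in the low control libraries (SD, n = 4 each). It stood at 28.5 CPM in library 6 and at 8.17 ± 5.18 CPM in the low Mt1ko libraries (SD, n = 5). Maob, a monoamine oxidase of the X chromosome, spanned 3.65 to 14.1 CPM and 0.895 to 2.35 CPM in high and low control libraries. Alox5, which starts leukotriene synthesis and is also made by other myeloid cells, separated the classes in both groups without reaching the 2-fold rule, with differences of 0.91 in control and 0.59 in Mt1ko.

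Receptors formed the next group. Kit (chromosome 5, 75574916 to 75656722, plus strand), the receptor of stem cell factor, stood at 41.3, 62.1, 140.4 and 88.7 CPM in control 3, 8, 9 and 15, at 2.89, 8.64, 2.54 and 0.865 CPM in control 1, 2, 7 and 14, at 57.0 CPM in library 6 and at 19.6, 10.9, 3.47, 24.6 and 12.9 CPM in Mt1ko 4, 5, 16, 17 and 18. Il1rl1 (chromosome 1, 40429570 to 40465415, plus strand), whose first promoter window is printed above, stood at 74.3, 95.1, 338 and 172 CPM in the high control libraries, at 6.50, 15.7, 5.74 and 1.16 CPM in the low ones, at 89.0 CPM in library 6 and at 34.5, 38.6, 8.48, 48.6 and 19.1 CPM in the low Mt1ko libraries. For both receptors the highest low library was Mt1ko 17, and it lay below the lowest high library, control 3. With the threshold at 50 CPM, which moves Mt1ko 4, 5 and 17 to the high class, Kit overlapped in Mt1ko, with library 5 below library 18, and was no longer higher in both.

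The chains of the IgE receptor behaved unequally. Fcer1a (chromosome 1, 173221284 to 173227214, minus strand), the chain that binds IgE, stood at 9.21, 17.6, 84.2 and 59.0 CPM in control 3, 8, 9 and 15, at 2.64, 2.35, 0.765 and 0 CPM in control 1, 2, 7 and 14, and at 26.2 CPM in library 6. The low Mt1ko libraries held 0.811 to 11.0 CPM of it, so libraries 5 and 17 lay above control 3 although no overlap occurred within either group. Ms4a2, the beta chain, spanned 16.1 to 80.4 CPM in high control, 1.44 to 8.46 CPM in low control, 24.2 CPM in library 6 and 3.47 to 16.0 CPM in low Mt1ko libraries. Fcer1g, the gamma chain that many myeloid receptors share, overlapped between the classes in both groups, with differences of -0.51 in control and 0.15 in Mt1ko.

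Further receptors among the 67 genes were less abundant. F2r, the thrombin receptor PAR1, spanned 10.8 to 52.7 CPM in high and 0 to 2.44 CPM in low control libraries, with 15.5 CPM in library 6 and 0.627 to 7.54 CPM in low Mt1ko libraries. Cd200r3, an activating receptor of mast cells and basophils, spanned 4.46 to 29.9 CPM and 0.328 to 1.3 CPM in high and low control libraries. Il9r, the interleukin-9 receptor, was at 0 in all 4 low control libraries and at 1.57 to 3.53 CPM in the high ones. Its mean over the 14 libraries was 1.014 CPM, so it passed the minimum only through the high libraries. Ptger3, a prostaglandin E2 receptor, and Cd34, a sialomucin of progenitors and mast cells, were also higher in both groups, with control differences of 1.69 and 2.48.

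Regulators and structural genes completed the set. Gata2 (chromosome 6), a transcription factor of progenitors and mast cells, stood at 14.3, 23.6, 57.2 and 37.2 CPM in control 3, 8, 9 and 15 against 1.3, 2.02, 2.05 and 0.328 CPM in control 1, 2, 7 and 14, and at 14.9 CPM in library 6 against 1.11 to 11.1 CPM in the low Mt1ko libraries. Mitf overlapped between the classes in both groups at 137 to 216 CPM over the 14 libraries, with differences of 0.19 and -0.30. Ccnd2, the D-type cyclin, spanned 37.5 to 123.2 CPM in high and 7.32 to 13.5 CPM in low control libraries, with 47.4 CPM in library 6 and 6.49 to 25.9 CPM in the low Mt1ko libraries.

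Regulators of actin were among the 12 genes with the largest mean differences at 10 CPM or more. Scin, the actin-severing protein adseverin, averaged 65.0 ± 21.4 CPM in high and 4.69 ± 7.84 CPM in low control libraries (SD, n = 4 each). Avil, which encodes advillin of the same protein family, averaged 65.9 ± 34.9 CPM and 2.38 ± 1.82 CPM, and Cobl, an actin nucleator, averaged 47.2 ± 38.2 CPM and 2.03 ± 1.66 CPM. Library 6 held 63.8, 28.0 and 22.7 CPM of Scin, Avil and Cobl. Genes of granule traffic (Rab27b, Sytl2) and of signalling below the IgE receptor (Lat, Clnk) were also among the 67, at lower levels: Rab27b spanned 12.8 to 55.7 CPM in high and 0 to 2.95 CPM in low control libraries, and Lat spanned 8.63 to 34.1 CPM and 1.28 to 3.16 CPM.

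Xist (chromosome X, 103460366 to 103483254, minus strand), the noncoding RNA of the inactive X chromosome in female cells, had the fifth place in the set by mean difference. It stood at 21.4, 21.8, 117 and 57.9 CPM in control 3, 8, 9 and 15, at 2.71, 0.655, 1.07 and 1.52 CPM in control 1, 2, 7 and 14, at 28.8 CPM in library 6, and at 8.09, 4.90, 0, 14.7 and 9.60 CPM in Mt1ko 4, 5, 16, 17 and 18. No overlap occurred, also over all 14 libraries. With the threshold at 50 CPM, Xist overlapped in Mt1ko, with library 5 below library 18, and was no longer higher in both. The Y-linked genes Ddx3y and Eif2s3y were at 0 in all 17 libraries, Uty reached 0.870 CPM and Kdm5d 2.78 CPM. Chromosome X held 4 of the 67 genes (5.97%), against 2.6% of all genes tested.

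**Figure D2:**
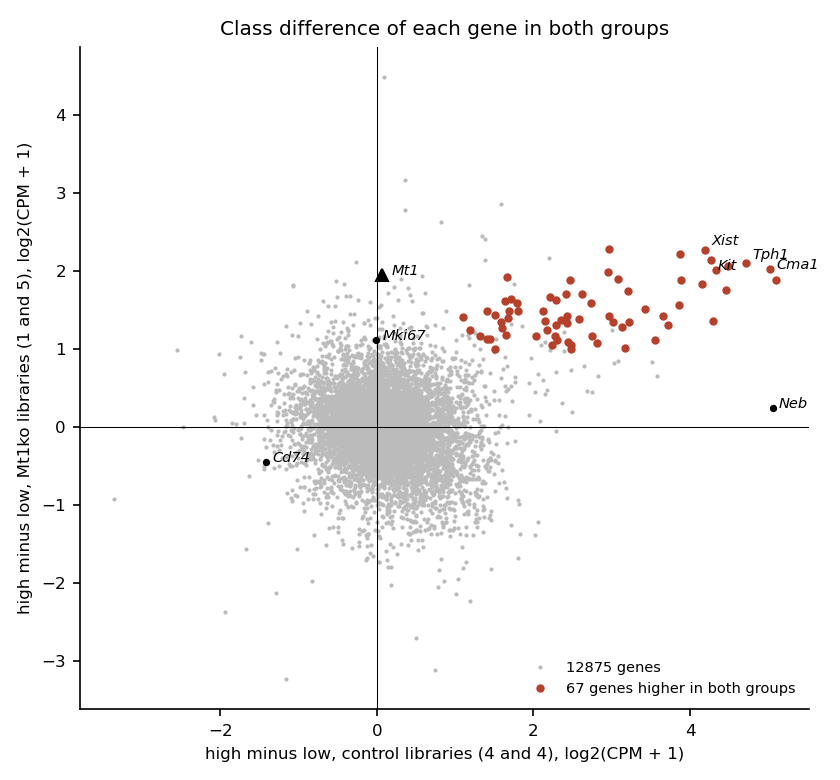
Class difference of each of the 12875 genes, high minus low in log2(CPM + 1), in control libraries on the x axis and in Mt1ko libraries on the y axis; red points are the 67 genes higher in both. The red points sit in the upper right, further from 0 on the control axis, while Mt1 lies near 0 in control and at 1.95 in Mt1ko.

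The genes called in one group were also followed into the other. The 67 are all the genes called higher in both, so by that choice no further gene could be. Of the 233 genes higher in control, 67 (28.8%) were higher and 12 were lower in Mt1ko, where all genes were called at 1.66% higher and 1.4% lower. Of the 166 outside the 67, 67 genes (40.4%) had a positive Mt1ko difference, against 53.1% of all genes. Without the 2-fold condition, 21 of the 166 (12.7%) lay above without overlap in Mt1ko, against 17.5% of all genes. Of the 34 lower in control, 0 were lower in Mt1ko, near the 1.4% of all genes, and 3 (8.82%) were higher. In the other direction, 67 of the 214 genes higher in library 6 (31.3%) were higher in control and 3 were lower. Of the 180 lower in library 6, 0 were lower and 12 (6.67%) were higher in control. All genes were called at 1.81% higher and 0.264% lower there, so that count of 0 is near the share of all genes. Of those 180, 138 (76.7%) had a positive control difference, against 51.5% of all genes.

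Predicted loci were unevenly spread over these sets. They made up 36.9% of the genes higher in control and 58.3% of those lower in library 6, against 15.2% of all genes tested and 1.49% of the 67. Named genes in the control-only set were Neb, which encodes the muscle protein nebulin and averaged 67.1 ± 48.8 CPM in high and 0.838 ± 0.878 CPM in low control libraries (SD, n = 4 each), Ctla2a, at 52.3 ± 44.7 and 2.78 ± 1.48 CPM, and Itga2b, the platelet integrin chain, at 47.8 ± 20.8 and 5.95 ± 5.47 CPM. Their Mt1ko differences were 0.25, 0.84 and 0.83. Cd74, the invariant chain of MHC class II, was lower in control, at 0.911 to 6.22 CPM in high and 8.47 to 15.5 CPM in low libraries, and at 10.9 CPM in library 6 within the 7.15 to 47.3 CPM of the low Mt1ko libraries. These 4 genes were chosen after their values were seen.

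Gene lists of marrow cell types were set beside the class differences. Cpa3, which made the classes, stands on the mast cell list, and the lists were chosen with earlier results of these data known. The counts below therefore describe the libraries and test no cell type. Of the 22 mast cell list genes, 7 lay under 1 CPM and Cpa3 was left out, so 14 were tested. Of the 14, 10 were higher in control (all genes 1.81%), 9 in Mt1ko (1.66%) and 9 in both (0.52%). Their median differences were 3.15 and 1.57. The 4 mast cell genes tested but not higher in control were Srgn, Mitf, Cd63 and Mcpt2. Hs3st1 was higher in control alone. The list's summed level without Cpa3 was 1220 to 2722 CPM in high and 554 to 1039 CPM in low control libraries, 1671 CPM in library 6 and 885 to 1232 CPM in low Mt1ko libraries, so the ranges did not overlap within a group. In bulk RNA, fewer cells of a type and less RNA per cell cannot be told apart.

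The basophil and IgE receptor list had 16 of 20 genes tested, with 7 higher in control (all genes 1.81%), 7 in Mt1ko (1.66%) and 6 in both (0.52%), namely Fcer1a, Ms4a2, Gata2, Cyp11a1, Cd200r3 and Ifitm1. The defining basophil proteases were absent or nearly so: Mcpt8 reached 1.10 CPM and Prss34 was at 0 in all 14 libraries. Of the stem and progenitor list, 17 of 26 genes were tested and 4 were higher in both groups (all genes 0.52%), namely Kit, Cd34, Gata2 and Angpt1, of which Kit also stands on the mast cell list and Gata2 on the basophil list. Other progenitor genes overlapped, among them Myb, with differences of -0.65 and 0.70, and Meis1, with -0.07 and 0.02. From the megakaryocyte list, 14 of 23 genes were tested and F2r, Rab27b and Gp1ba were higher in both (all genes 0.52%). Its defining genes Pf4 and Ppbp were not, with differences of -0.63 and -0.37 for Pf4, and Gp9, Gp1bb, Clec1b and Mpig6b were at 0 in all 14 libraries.

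Genes of monocytes, macrophages and neutrophils showed smaller differences. Of the 27 tested monocyte and macrophage genes and the 11 mature neutrophil genes, 0 were called in either group, where all genes were called at 1.81% higher and 0.264% lower in control, so a count of 0 in lists of this size is near that share. In control, 5 of the 27 monocyte and macrophage genes had a higher mean in the high libraries (median -0.22), as did 1 of 11 genes of granulocyte-monocyte progenitors (median -0.67). Of all genes, 51.5% did. Lyz2, the lysozyme of myeloid cells, spanned 2139 to 6091 CPM in high and 2381 to 6387 CPM in low control libraries. Itgam, the CD11b chain, spanned 2552 to 3197 CPM and 3221 to 3352 CPM there, which did not overlap but differed by only -0.17. The HOX and MEIS list had 0 of 13 tested genes called, a count near the share of all genes, with Hoxa9 at 48.4 to 83.3 CPM in high and 63.3 to 69.9 CPM in low control libraries. Among eosinophil genes 3 of 12 were tested and 0 were called, and Epx and Prg2 were at 0. Tested genes of B cells (3), T and NK cells (1) and erythroid cells (8) gave 1 call, Tal1 in control. Lists this short, the eosinophil list included, cannot be set apart from the shares of all genes.

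Several lists had medians of opposite sign in the 2 groups. Of 39 tested cell cycle genes, 1 was higher in control, about the 1.81% of all genes, and 7 in library 6 (all genes 1.66%), with medians of -0.25 and 0.39. Mki67 stood at 106 CPM in library 6 and at 33.0 to 67.6 CPM in the low Mt1ko libraries, whereas in control the classes overlapped at 22.1 to 64.0 CPM in high and 4.97 to 139.9 CPM in low libraries. Elane, the neutrophil elastase of early granulocytes, stood at 104 CPM in library 6 against 23.8 to 56.9 CPM in low Mt1ko libraries, with a control difference of -0.69. The ATF4 amino acid response list had 2 of 24 positive differences in control (median -0.54, all genes 51.5% positive) and 21 of 24 in Mt1ko (median 0.30, all genes 53.1%). Its calls were Slc7a11 higher in control (all genes 1.81%), and Cth lower in control (0.264%) and higher in library 6 (1.66%). Ribosomal protein genes had 0 of 32 calls, a count near the share of all genes, and medians of -0.32 and 0.04. The only list member of the cell cycle higher in both groups was Ccnd2.

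**Figure D3:**
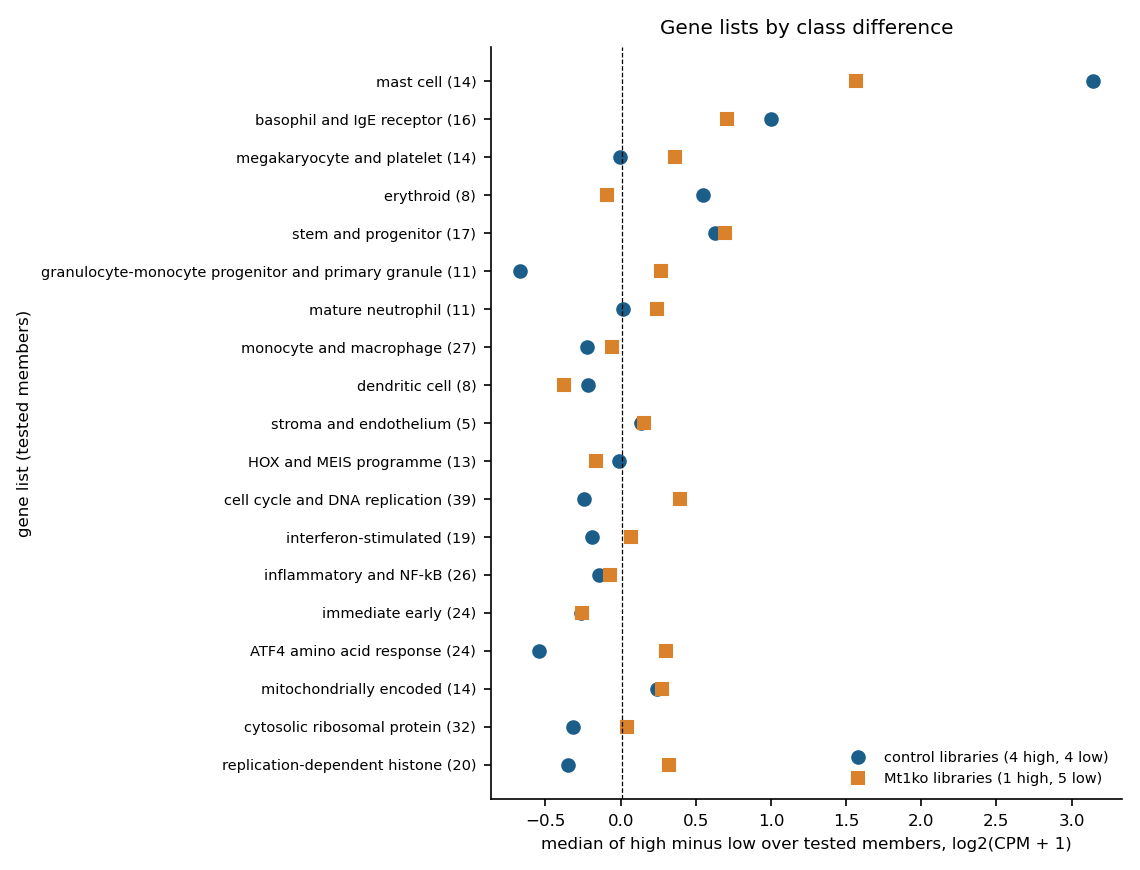
Median class difference over the tested members of each gene list with at least 5 of them, in control libraries (circles) and Mt1ko libraries (squares), in log2(CPM + 1); the dashed line is the median of all genes. The mast cell list lies furthest from 0, at 3.15 and 1.57, and the basophil and IgE receptor list comes next, at 1.00 and 0.71. Cpa3, which made the classes, belongs to the mast cell list and is left out of its median.

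The high libraries also differed in technical shares. Mitochondrial ribosomal RNA took 4.67 to 11.2% of the counts of the high and 4.58 to 6.03% of the low libraries, and within sums it was higher in the high libraries of 3 of the 4 that hold both classes, all but 1-3. Cytosolic ribosomal protein genes took less in the high than in the low libraries of each of these 4 sums, for example 1.94% against 2.50% in 15 and 14. Column totals lay between 27124722 and 38645072 counts in both classes. The part of these shares in the class differences was not tested. With mitochondrial genes left out of the column totals, 71 genes were higher in both groups, the 67 among them.

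The classes were also compared inside sums. In the 4 sums with both classes, 125 genes (0.971%) were higher in every sum, with a mean difference of at least 1, and 13 (0.101%) were lower. The 67 genes had no overlap within a group, so each of them had to be higher in every sum, and only the condition on the mean could fail. H2ac6, a histone gene, fell short of it, and the sizes below are a description. For Kit the within-sum differences were 2.79 in 1-3, 1.89 in 4-6, 4.74 in 7-9 and 5.59 in 14-15. For Cma1 they were 2.94, 1.23, 5.26 and 7.86, and for Xist 3.18, 2.02, 4.65 and 4.55. The sum 4-6, which holds library 6, gave the smallest of the 4 values for these 3 genes, and 14-15 gave the largest for Kit and Cma1.

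**Figure D4:**
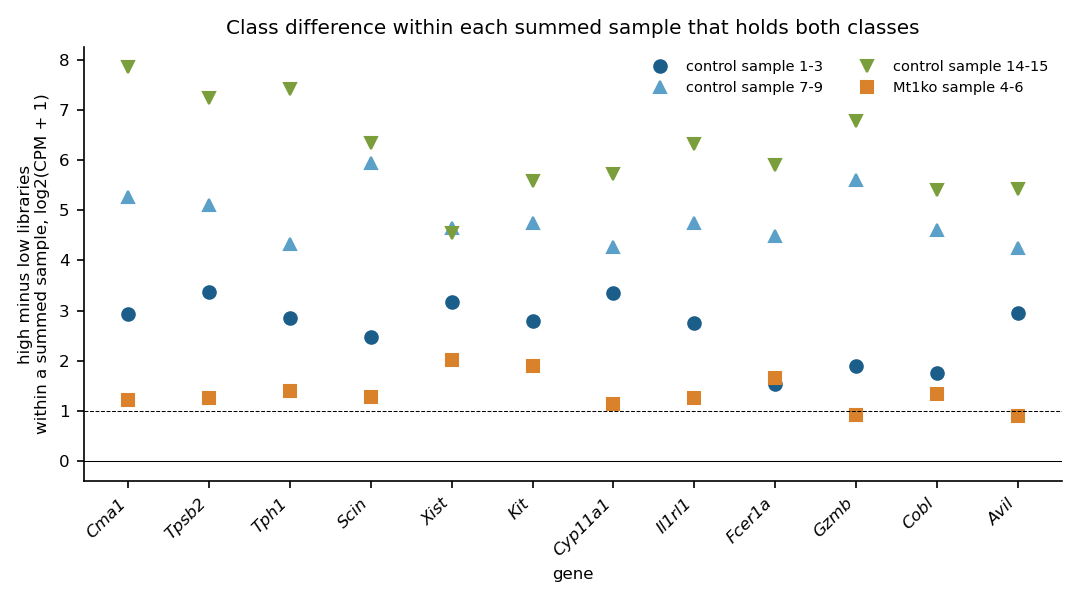
Difference between high and low libraries of the same summed sample, in log2(CPM + 1), for the 12 named genes higher in both groups; each symbol is a sum, and the dashed line marks 1. Every symbol lies above 0, as the choice of the genes requires, the Mt1ko sum 4-6 is the lowest for all but Fcer1a, and 14-15 is the highest for all but Xist.

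Libraries with the same second index sequence could be compared too. Among those with the first, Cma1 stood at 140.2, 169 and 163 CPM in high libraries 3, 8 and 6 and at 6.72 to 74.4 CPM in low libraries 1, 2, 4, 5 and 7. Among those with the second, it stood at 516 and 397 CPM in high libraries 9 and 15 and at 0.716 and 7.34 CPM in low libraries 14 and 16. Since Cma1 had no overlap over the 14 libraries, it could have none within an index, and the values are a description. The third index was carried by low libraries 17 and 18 alone.

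Libraries 10 to 12, which the rule did not use, gave the same genes a further reading. They are Mt1ko libraries with 21.9 to 30.2% of counts in mitochondrial ribosomal RNA and 11548 to 13174 genes with a count, against 14823 or more in the 14. Of the 67 genes, 53 (79.1%) lay above every low library in all 3 of them with a 2-fold difference of means, whereas 221 of all tested genes (1.72%) did. The median difference was 3.68 for the 67 and -0.48 for all genes. Cma1 stood at 752, 1709 and 781 CPM in libraries 10, 11 and 12, Kit at 134, 413 and 194 CPM, and Xist at 139, 305 and 88.7 CPM. Library 11 was the highest of all 17 for Cpa3 and for 52 of the 67 genes. These 3 libraries were left out by name and are themselves highest in Cpa3, so they repeat the measure without being a separate test. The genes that were not above every low library there included Angpt1, Hs6st2, Fgf2 and Capn5.

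Cpa3 also varied within the classes, from 0.209 to 86.1 CPM in the low and from 158 to 618 CPM in the high libraries. Over the 13 libraries with at least 100 counts of Cpa3, Cpa3 spanned 92.3-fold, while the counts of Cma1 per 100 counts of Cpa3 lay between 53.9 and 113 (2.10-fold), those of Il1rl1 between 42.1 and 85.7 (2.04-fold), those of Tpsb2 between 68.6 and 162 (2.36-fold) and those of Kit between 13.1 and 38.0 (2.91-fold). Counts per 100 are not corrected for gene length and compare libraries, not genes. Gzmb kept a looser ratio, 7.35 to 80.6, and Scin went from 1.63 to 44.1. Tph1 (4.31-fold), Cyp11a1 (5.68-fold), Fcer1a (5.73-fold) and Cobl (15.7-fold) were looser too, and Xist went from 0 to 34.4. Library 14, with 7 counts of Cpa3, has no part in these ratios. Mt1 per 100 counts of Cpa3 spanned 89.9-fold, close to the span of Cpa3 itself. Every library's ratio shares its Cpa3 count and its depth, and all but Mt1 of these genes were chosen through classes that Cpa3 made. The ratios are therefore a description.

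**Figure D5:**
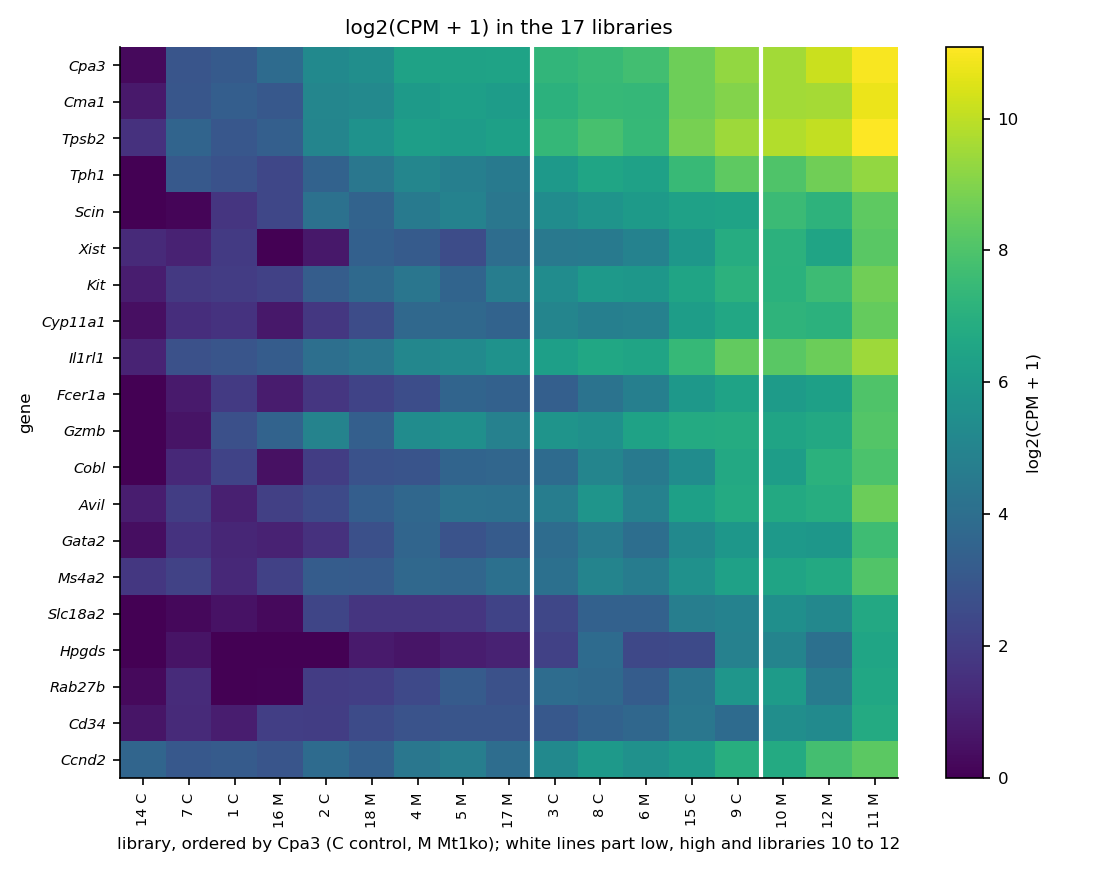
log2(CPM + 1) of Cpa3, the 12 named genes and 7 others of the 67 in the 17 libraries, ordered from the lowest to the highest Cpa3; white lines part the 9 low, 5 high and 3 left-out libraries. Colours brighten from left to right in most rows, with the low Mt1ko libraries 4, 5 and 17 at the bright end of the low class.

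The low class itself was uneven between the groups. For 65 of the 67 genes the mean over the 5 low Mt1ko libraries lay above the mean over the 4 low control libraries. Tpsb2, for instance, averaged 56.0 ± 28.4 CPM in low Mt1ko (SD, n = 5) and 12.9 ± 13.2 CPM in low control libraries (SD, n = 4). In the high class, library 9 was the highest of the 5 for Cpa3 and for 50 of the 67 genes. Library 6 lay between the lowest and the highest high control library for Cpa3, Cma1, Tpsb2 and Kit.

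The labelled groups, which come from the titles, were tested with the Cpa3 class as a second term. edgeR's quasi-likelihood test over 14701 genes called 0 genes higher (0%) and 1 lower (0.0068%) in Mt1ko than in control, and 396 genes had an unadjusted p under 0.05. DESeq2 called 3 genes higher. The 1 gene was Mt1 (ENSMUSG00000031765; chromosome 8, 94179082 to 94180327, plus strand), with a log2 fold change of -1.63 (SE 0.23, 95% interval -2.11 to -1.14, edgeR adjusted p = 0.0277) and a lower level in 6 of the 6 Mt1ko libraries than in any control library. Without class in the model its change was -1.68 (edgeR adjusted p = 0.232), and without library 6 it was -2.22 (edgeR adjusted p = 1.72e-08). With the summed sample as a random block in limma the adjusted p was 0.0548. Leaving out any of 10 of the 14 libraries ended the call, namely any but 3, 6, 9 and 15. Mt2, the neighbouring paralog, changed by -0.22 (SE 0.12, edgeR adjusted p = 1.00).

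Of the 67 genes, edgeR called 0 between Mt1ko and control. An unadjusted edgeR p under 0.05 was found for 13 of the 67, against 396 of all 14701 genes. The 67 had a median log2 fold change of 1.26 with class in the model, positive for 64 of 67. Without class it was -0.93, positive for 3 of 67, so the direction turned with the term. With class and the summed sample as a block in limma the median was -0.07, positive for 29 of 67. Over all 14701 genes these medians were 0.0088 (7588 positive), -0.011 (7081) and 0.0059 (7501). Cpa3, which made the classes and so chose the 67, turned likewise, at 1.71 with class and -0.98 without. For 65 of the 67, low Mt1ko libraries had a higher mean than low control libraries, and the class term does not remove this. The signs with class, and the count of 13, therefore partly restate the choice of the genes and test nothing. Kit was at 1.43 (SE 0.60, edgeR adjusted p = 1.00) with class and at -0.98 (edgeR adjusted p = 0.866) without, and at -0.05 with class and the block (limma adjusted p = 1.00). The libraries are labelled technical replicates and come from 5 sums, so these p-values measure the spread between libraries, which may be technical.

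Whether the class difference itself differed between the groups was fitted as an interaction. Measured Cpa3 made the classes and library 6 is the only high Mt1ko library, so the values describe that library and support nothing. edgeR called 1 gene with a higher and 1 with a lower class difference in Mt1ko than in control (0.0068% each), and 702 genes had an unadjusted p under 0.05. Mt1 had an interaction of 1.90 (SE 0.20), which restates the level of Mt1 in library 6 given above: in control it stood at 414 ± 61.6 CPM in high and 393 ± 48.6 CPM in low libraries (SD, n = 4 each), and in Mt1ko at 326 CPM in library 6 and 83.8 ± 4.77 CPM in the low libraries (SD, n = 5). Gm48275, a predicted locus, had -4.17 (SE 0.63), with 0.906 CPM in library 6 against 11.6 ± 2.39 CPM in the low Mt1ko libraries (SD, n = 5) and 14.3 ± 2.95 and 10.0 ± 3.09 CPM in high and low control libraries (SD, n = 4 each). For the 67 genes the median interaction was -2.29 and 65 were negative. Over all 14701 genes the median was -0.034 and 7712 were negative. Without library 6 the interaction could not be fitted.

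The promoters of the 67 genes were searched for the letters shown above. RefSeq promoters, from 250 bases before to 50 after a start site in GRCm38.p6, were found for 50 of the 67 genes and numbered 68. AGATAA or the related TGATAA, on either strand, occurred in 14 of the 68 (20.6%), in 10.7% of the promoters of all tested genes and in 18.6% of the whole promoter table. The E-box letters CATGTG, which MITF can bind, occurred on either strand in 8 of the 68 (11.8%), in 8.94% of those of tested genes and in 14.2% of the whole table. A match gives letters in a window, with no measurement of binding.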

How the data were processed

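RNA was extracted with RNeasy Micro columns and DNase and made into libraries with the SMARTer stranded total RNA v2 Pico kit, per the labels' protocols. For each of 17 libraries the authors deposited gene counts as whole numbers, with a table of their sums per sample. Trimmomatic 0.35, RSEM 1.3.3 and GRCm38/mm10 are named per the submitters' processing notes, and neither an aligner nor whether counting used the strand is named there. The deposited table lists 56305 genes, of which 55227 matched GENCODE vM21, and the summed table equalled the sums of the libraries in every gene.

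CPM used each column's total, which lay between 27124722 and 38645072 counts in the 14 libraries. Differences between classes are on log2(CPM + 1), over genes with a mean of at least 1 CPM, with no p-value. Mt1ko was tested against control, and the interaction of class with group, with edgeR 4.0.16 quasi-likelihood fits (TMM, filterByExpr, Benjamini-Hochberg adjustment) in R 4.3.3, and with DESeq2 1.42.0 and limma 3.58.1 as alternatives. The edgeR fit of Mt1ko against control with class was run on simulated data with planted differences. The interaction, DESeq2 and limma fits were not. Tables were handled with Python 3.11.15, pandas 2.3.3 and numpy 2.4.6. Named genes were the 12 with the largest mean of the control and Mt1ko differences among those higher in both with a mean of at least 10 CPM, leaving out predicted loci, with Cpa3, Mt1, Mt2, genes called by edgeR and up to 4 of the most abundant members of each list beside them. Other genes of the 67 and of the lists that the text names were chosen after their values were seen. Nothing in the labels says that libraries came from separate animals. The members, gene lists and rules were chosen with earlier results of these data known.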

Additional observations from a re-analysis of the deposited data

Results flagged for a closer look

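Library 6 stood apart among the 6 Mt1ko libraries that the rule kept. It held 209 CPM of Cpa3, with the next at 86.1 CPM, and 326 CPM of Mt1, with the next at 87.2 CPM. Cpa3 is the measure that made library 6 the single high Mt1ko library. Mt1ko libraries 10 to 12, which were left out, held 749 to 1989.9 CPM of Cpa3, all above library 6. In both genes, the gap of library 6 to the nearest library exceeded the 95% critical value of Dixon's test, which for Cpa3 restates the rule. Cobl in library 9 did so among the 8 control libraries, at 101.9 CPM with the next at 41.4 CPM. In all, 30 groups of values were examined in this way and 3 held such a library, where chance gives about 1 in 20 for unrelated values. These groups share libraries, Cpa3 made the classes and Cobl was chosen through them, so the count tests nothing.

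The class difference of Mt1 differed between Mt1ko and control by 1.90 on the log2 scale, and that of Gm48275 by -4.17, both in edgeR's interaction fit. Library 6 is the only high Mt1ko library there and Cpa3 made the classes, so the Mt1 value restates that library's level.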

How the results depend on the processing

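No paired analysis was possible because each library carries a number of its own and no number is shared between the groups. With the summed sample as a block in limma, 0 genes were lower in Mt1ko than in control and 0 had a lower interaction.

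The 67 genes higher in both groups became 21 with a pseudocount of 5 (21 shared), 19 at a mean of at least 10 CPM (mast cell list members 5), 39 with the threshold at 50 CPM (35 shared, Kit and Xist not among them) and 125 within sums (66 shared, which the choice of the genes all but fixes, with 13 lower). Lower in both became 4 at 1.5-fold, 3 with the threshold at 200 CPM and 1 with libraries 10 to 12 added as high. In control, higher and lower genes numbered 83 and 2 with a pseudocount of 5, 56 and 7 at 10 CPM, 384 and 76 at 1.5-fold, 369 and 146 at 200 CPM, and 587 and 99 without libraries 7 to 9. In Mt1ko they numbered 398 and 426 with a pseudocount of 0.1, 31 and 12 with 5, 30 and 28 at 10 CPM, 646 and 612 at 1.5-fold, and 102 and 425 at 50 CPM, and 108 were higher with libraries 10 to 12 added. Settings with libraries 10 to 12 added, without 7 to 9 or within sums were chosen after seeing the data.

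Leaving out a replicate gave 216 to 422 genes higher in control (422 without library 8, 421 without library 7) and 32 to 158 lower (158 without 7, 124 without 3, 63 without 15), 214 to 248 higher and 157 to 262 lower in Mt1ko, and 53 to 73 higher and 0 to 1 lower in both. Without library 6 the Mt1ko and both-group counts could not be made.

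Between Mt1ko and control, DESeq2 called 3 genes higher and edgeR 1 without libraries 7 to 9. Genes lower numbered 0 without class or with numeric Cpa3 in its place, and 0 to 1 when a library was left out. DESeq2 called 25 genes with a lower interaction, and leaving out a library gave 0 to 1. The cause of these changes was not tested.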
